A study of Mus musculus with 6 samples.

Results

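Growth factor receptor tyrosine kinases are membrane proteins that carry growth, survival and differentiation signals into the cell. The 10 receptor genes described here were chosen by name from the FGF, insulin and IGF, EGF, HGF, PDGF and ephrin receptor families. No measured value enters that rule, but it was written with earlier results of these data known. All 10 were found among the 27179 genes of the deposited table. They were measured by RNA sequencing in lenses of mouse pups at P1, that is postnatal day 1, of B6/FVB strain. 3 libraries are labelled Gclc KO and 3 Gclc CON, and no other treatment is given for either group. Gclc encodes the catalytic subunit of the enzyme that starts glutathione synthesis. How the allele was made, which cells lost it, the control genotype and the number of animals per library are not given in the sources used here, so a p-value here reflects the spread of these 6 libraries, which may be technical.

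When a ligand binds, such a receptor pairs with another and its kinase domains phosphorylate each other, which recruits adaptors that switch on the RAS and ERK cascade and the PI3K and AKT cascade. In the lens, FGF receptors drive epithelial cells at the equator to elongate into fibre cells, whereas IGF, EGF and PDGF receptors mainly support epithelial proliferation and survival. EphA2 signals at contacts between cells and keeps epithelial and fibre cells in register.

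Of the 10 receptor genes, Fgfr3 and Pdgfra fell in KO lenses and none rose. Of the 8 that could be tested, none was higher by limma at an unadjusted p under 0.05, or by adjusted p with voom on recovered reads and size factors, whereas 3 were called higher under total-read scaling, given below. Without the filter on low values, Egfr was higher at an unadjusted p of 0.0215 and was not called after adjustment. Fgfr3 was 2.96-fold lower and Pdgfra 4.01-fold lower, and for both every KO library lay below every CON library. Fgfr1, Fgfr2, Igf1r, Insr, Erbb2 and Epha2 did not pass the test. Egfr and Met had too few reads to enter it. Of all 11468 genes tested, 4.39% fell and 6.91% rose at the same threshold, against 2 and 0 of the 8 tested receptor genes. The median log2 difference was -0.12 over these 8 and 0.03 over all tested genes.

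Because Fgfr3 and Pdgfra carry the decrease, the sequence before the start of each is shown, as given by RefSeq for GRCm38.p6 on the plus strand. Each run covers the bases from 250 to 51 before the start, chr5:33721474-33721673 for the upstream start of Fgfr3 and chr5:75152001-75152200 for Pdgfra. Capitals mark matches to the motifs searched.
Fgfr3: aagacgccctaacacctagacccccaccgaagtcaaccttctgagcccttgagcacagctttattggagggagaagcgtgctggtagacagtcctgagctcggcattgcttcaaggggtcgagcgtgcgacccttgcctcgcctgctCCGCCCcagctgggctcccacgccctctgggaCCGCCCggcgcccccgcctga
Pdgfra: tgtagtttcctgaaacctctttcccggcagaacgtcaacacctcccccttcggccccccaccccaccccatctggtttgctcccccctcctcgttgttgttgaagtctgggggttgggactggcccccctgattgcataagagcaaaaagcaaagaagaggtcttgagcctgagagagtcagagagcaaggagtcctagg
The motifs were the GC box (GGGCGG), the TATA box (TATAAA), the ETS core (CCGGAA), the cAMP response element (TGACGTCA) and the AP-1 site (TGAGTCA), on both strands. The Fgfr3 run held 2 GC boxes and none of the other 4 motifs, and the Pdgfra run held none of the 5. Bases nearer the start than 51 were left out, since they hold annotated exon sequence of another Fgfr3 transcript. A motif there, such as a TATA box close to the start, would not be found. Of 32851 promoter windows of the same length, 24.6% held a GC box, 9.14% a TATA box, 8.03% an ETS core, 3.61% an AP-1 site and 0.828% a cAMP response element. The run of Fgfr3 was 65% G and C with 14 CpG pairs, and that of Pdgfra was 56.5% with 4. Over all 32851 windows the medians were 51.5% G and C and 4 CpG pairs. RefSeq gives Fgfr3 a further start (chr5:33722056-33722255 for the matching window), which also held 2 GC boxes. 8 of the 10 receptor genes had an entry, and Fgfr1 and Insr had none.

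Libraries held from 20361430 (CON 2) to 61219009 (KO 3) reads in genes, and the 10 receptors together took from 1414 reads (CON 2) to 8515 (KO 3). Normalised reads below are reads divided by the size factor of the library. Values of single libraries stand in the order of replicate 1, 2 and 3, and group values are means ± SD with n = 3. A positive log2 difference means a higher mean in KO. It is taken between deposited variance-stabilised values, so it is smaller than the log2 ratio of reads where reads are few. Adjusted p-values are from limma with Benjamini-Hochberg adjustment over all genes tested. Gclc itself was called lower, with 178, 283 and 173 normalised reads across the CON libraries, against 17.9, 72.1 and 58.1 across the KO libraries (limma, adjusted p = 0.0387). Leaving out CON 2 or any 1 of the KO libraries ended its call (largest adjusted p 0.130). So did 6 other settings: no filter (0.0752), the replicate number as a block (0.0643), log2 of normalised reads plus 1 (0.0709), voom on recovered reads with size factors (0.0609) or total reads (0.124), and a covariate for library naming style (0.110), since KO 2 and KO 3 have names of another style than the other 4. The column name of CON 2, the library with the fewest reads, also ends differently from the others, and no covariate was fitted for it. Lens identity was clear in every library. The 12 fibre markers summed to at least 9150356 normalised reads in CON and at least 3616953 in KO, and 11 of them fell. Crystallins took from 59.5% to 68.4% of the reads in CON and from 40.5% to 47.5% in KO, so the choice of scaling matters for all genes. Under total-read scaling, which divides by all reads in genes, the median log2 difference of all tested genes moved from 0.03 to 0.86. In such bulk RNA, fewer cells of a type and less RNA per cell cannot be told apart.

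**Figure D1:**
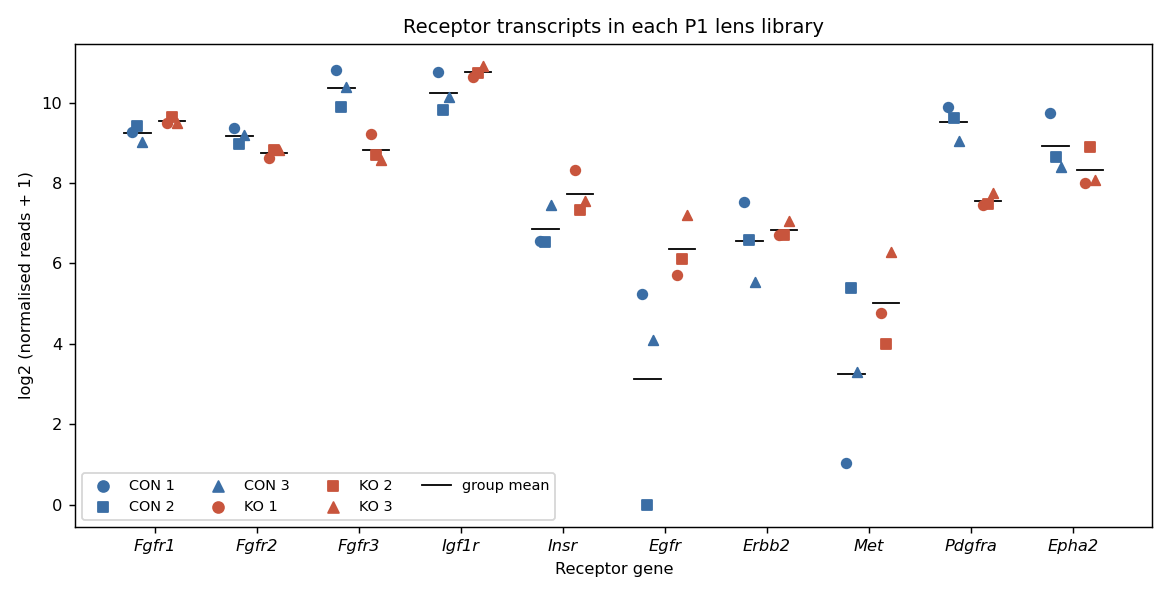
Each point is one library, on an axis of log2 of normalised reads plus 1, with CON in blue and KO in red and the bar at the group mean on that axis. For Fgfr3 (378 to 594 against 954 to 1807) and Pdgfra (175 to 213 against 531 to 952), the KO points lie clear below the CON points.

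Of the FGF receptors, Fgfr3 fell, and Fgfr1 and Fgfr2 did not pass the test. Fgfr3 (Entrez 14184) is a high-affinity FGF receptor of the lens equator and of several epithelia. It measured 1807, 954 and 1339 normalised reads across the CON libraries, against 594, 411 and 378 across the KO libraries. The highest KO library stood well under the lowest CON library. The log2 difference was -1.27 (SE 0.27, 95% confidence interval -1.85 to -0.69, adjusted p = 0.0108), from 1367 ± 427 to 461 ± 116 normalised reads. The call was lost without KO 2 (adjusted p = 0.0540), where 1.53% of tested genes were called lower. It was also lost under total-read scaling (-0.80, adjusted p = 0.123), and with the naming style of the libraries as a covariate (-0.97, adjusted p = 0.255), where 0.34% of tested genes were called lower. That fit sets KO 1 alone against CON.

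Fgfr2 (Entrez 14183), whose splice forms bind different FGF ligands, measured 663, 500.4 and 586 normalised reads across the CON libraries, against 396, 451 and 449.8 across the KO libraries. All KO values were below all CON values, but the gap was small beside the spread. Its log2 difference was -0.32 (95% confidence interval -0.83 to 0.18, adjusted p = 0.409). Fgfr1 (Entrez 14182), the most widely expressed FGF receptor, ran the other way, with 619, 686 and 519 normalised reads across the CON libraries, against 716, 797 and 725 across the KO libraries. Every KO value exceeded every CON value. The log2 difference was 0.24 (95% confidence interval -0.24 to 0.73, adjusted p = 0.538). Groups without overlap were common in these data, with KO below CON for 14.1% of tested genes and above it for 16.9%. Among the 8 tested receptor genes, 3 lay wholly below (Fgfr2, Fgfr3, Pdgfra) and 1 wholly above (Fgfr1). Fgfr4, a receptor of liver and muscle, had no reads in any library, which allows up to 3 reads per library from counting error.

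Fgfr3 is present in lens epithelium and young fibre cells. Epithelial markers went both ways in the same libraries. Of 9 tested epithelial markers 3 fell and 1 rose, and their summed level was 24664 to 35072 normalised reads in CON and 22145 to 30867 in KO. Fibre markers fell in 11 of 12 cases with a median log2 difference of -1.41. The part of these cell types in the decrease of Fgfr3 was not tested.

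Pdgfra (Entrez 18595) encodes the receptor for PDGF-A and PDGF-C, which is present on lens epithelium and, around the lens, on mesenchyme and on glia. It measured 952, 789.9 and 531 normalised reads across the CON libraries, against 175, 179 and 213 across the KO libraries. The KO libraries were tightly grouped and lay far below the lowest CON library. The log2 difference was -1.40 (SE 0.26, 95% confidence interval -1.96 to -0.83, adjusted p = 0.00616), from 758 ± 212 to 189 ± 21 normalised reads. The decrease passed the test without each library in turn. Under total-read scaling the difference was -1.13 and the call was lost (adjusted p = 0.0676), as it was with the naming style covariate (-1.46, adjusted p = 0.0919).

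Lens epithelium also carries Pdgfra, and of its 9 tested markers 3 were called lower and 1 higher (median log2 difference -0.43). Among markers of the other cells that can carry Pdgfra, around the lens, none was called lower by limma. Pericyte and mesenchyme markers summed to 1252 to 2631 normalised reads in CON and 1543 to 3796 in KO, and 0 of the 4 tested were called (1 higher and 1 lower at an unadjusted p under 0.05). Astrocyte markers summed to 969 to 1434 normalised reads in CON and 3523 to 3932 in KO, and 1 of the 3 tested rose. Pax2, which marks young astrocytes of the retina, had at most 6.29 normalised reads in any library. The part of these cells in the decrease of Pdgfra was not tested.

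The insulin and IGF receptors stood higher on average in KO, within the spread of the libraries. Igf1r (Entrez 16001) measured 1735, 897 and 1122 normalised reads across the CON libraries, against 1586, 1690.5 and 1924 across the KO libraries. CON 1 lay inside the KO range, whereas CON 2 and CON 3 lay below it. The log2 difference was 0.46 (95% confidence interval -0.08 to 1.00, adjusted p = 0.269). Without CON 1 it was called higher (adjusted p = 0.0450), where 9.46% of tested genes were called higher. Insr (Entrez 16337) measured 93.9, 91.3 and 175.5 normalised reads across the CON libraries, against 317, 159 and 187.6 across the KO libraries. CON 3 fell among the KO values. The log2 difference was 0.48 (95% confidence interval -0.13 to 1.10, adjusted p = 0.305).

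The EGF and HGF receptors were sparse. Erbb2 (Entrez 13866), the partner of the other EGF family receptors that binds no ligand by itself, measured 184, 94.4 and 45.7 normalised reads across the CON libraries, against 104, 103 and 132 across the KO libraries. The CON libraries spanned the KO range, and the log2 difference was 0.09 (95% confidence interval -0.54 to 0.72, adjusted p = 0.882). Its sign turned with equal library medians (-0.03), with quantile normalisation (-0.07) and without CON 3 (-0.13).

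Egfr (Entrez 13649) had only 35, 0 and 11 reads in the CON libraries and 90, 114 and 278 in the KO libraries. After scaling these were 36.9, 0 and 16.2 normalised reads in CON and 51.8, 68.5 and 147 in KO, a 5.03-fold higher mean with every KO library above every CON library. Its mean of 0.92 log2 units above the lowest value of the table missed the minimum of 1, so it was tested only when the filter was dropped. There the log2 difference was 0.83 (95% confidence interval 0.15 to 1.51, adjusted p = 0.146). Met (Entrez 17295), the receptor for hepatocyte growth factor, had 1, 13 and 6 reads in the CON libraries and 46, 25 and 145 in the KO libraries. These came to 1.06, 40.9 and 8.85 normalised reads in CON and 26.5, 15.0 and 76.6 in KO. The groups overlapped, and without the filter the log2 difference was 0.36 (adjusted p = 0.504).

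Epha2 (Entrez 13836), whose loss or mutation leads to cataract, measured 855, 397 and 339 normalised reads across the CON libraries, against 257, 476 and 267 across the KO libraries. CON 1 stood high, and KO 2 lay among the CON values. The log2 difference was -0.45 (95% confidence interval -1.14 to 0.25, adjusted p = 0.412), and without CON 1 it was -0.13.

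Scaling changed which receptors were called. Under total-read scaling, Fgfr1 (1.14, adjusted p = 0.0263), Igf1r (1.28, adjusted p = 0.0248) and Insr (1.63, adjusted p = 0.0489) were called higher and none lower, where 28.9% of tested genes were called higher and 0.741% lower. Relative to the median of all tested genes under that scaling, 0.86, Fgfr3 and Pdgfra still stood below. Fgfr2 (0.36) and Epha2 (0.13) turned positive and stayed under that median.

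**Figure D2:**
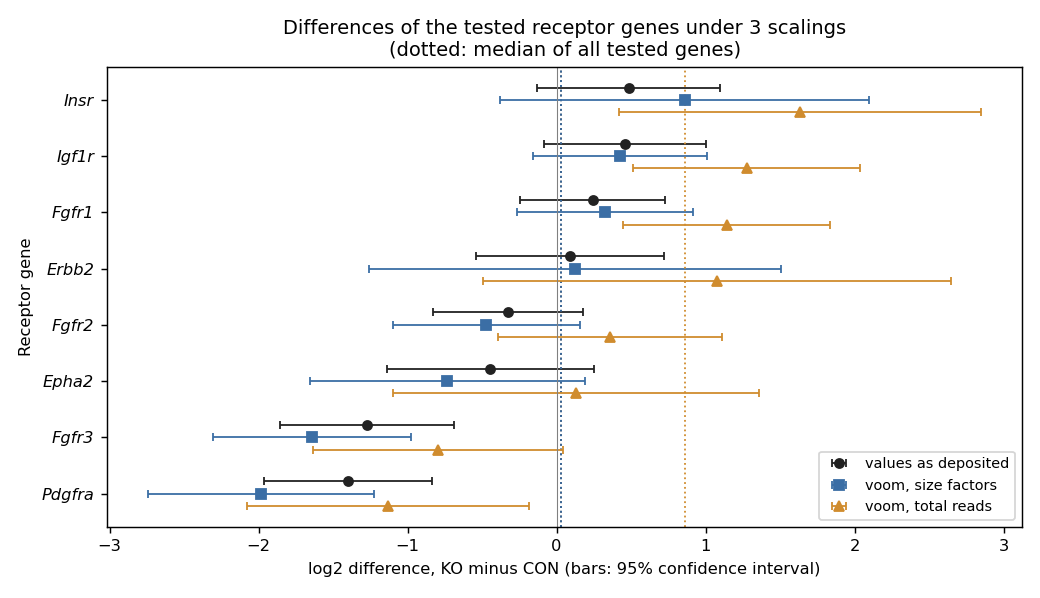
Points are log2 differences, KO minus CON, of the 8 tested receptor genes under 3 scalings, with 95% confidence intervals as bars and the median of all tested genes as dotted lines. Fgfr3 and Pdgfra are the lowest pair under each scaling, and total-read scaling moves all 8 upward.

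Levels of different genes were compared as normalised reads per kilobase of the longest annotated transcript. In CON lenses Fgfr3 had the highest level of the 10, at 322 ± 101 per kilobase, and its range did not touch that of the next gene. Epha2 (136 ± 72.3), Fgfr2 (132 ± 18.4), Fgfr1 (121 ± 16.7), Pdgfra (111 ± 31.1) and Igf1r (109.7 ± 38.0) followed, and neighbours among these 5 overlapped. Erbb2 (21.5 ± 14.0) and Insr (12.9 ± 5.12) came next and overlapped each other. Met (2.49 ± 3.10) and Egfr (1.74 ± 1.81) were last, with ranges that also overlapped. With the length of all exons joined in place of the longest transcript, Fgfr1 and Fgfr2 changed places, as did Pdgfra and Igf1r.

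In KO lenses the order was led by Igf1r (151.9 ± 15.2 per kilobase) and Fgfr1 (148 ± 8.74), whose ranges overlapped. Fgfr3 (109 ± 27.4), Fgfr2 (97.6 ± 7.05) and Epha2 (85.1 ± 31.5) formed an overlapping middle group. Pdgfra (27.6 ± 3.07), Insr (23.6 ± 9.0) and Erbb2 (22.56 ± 3.29) were close together, ahead of Egfr (8.73 ± 4.97) and Met (5.78 ± 4.81). With joined exon lengths Epha2 came before Fgfr2, and Insr and Erbb2 came before Pdgfra. Pdgfra thus stood with Fgfr1 and Igf1r in CON and with Insr and Erbb2 in KO.

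Shares of the summed level per kilobase do not depend on the size factors. Fgfr3 made up 33.8%, 27.9% and 37.4% of the receptor sum in the CON libraries and 21%, 13.9% and 13.2% in the KO libraries. Pdgfra made up 11.1%, 14.4% and 9.20% in CON and 3.85%, 3.74% and 4.62% in KO. Both shares were lower in each KO library than in any CON library. Igf1r made up 12.1%, 9.78% and 11.7% in CON and 20.9%, 21.2% and 25% in KO, and Fgfr1 9.75%, 16.9% and 12.2% in CON and 21.4%, 22.61% and 21.3% in KO. Both of these shares were higher in each KO library. Fgfr2 kept between 11.9% and 15.7% in all 6 libraries. Since shares sum to the whole, a fall of one raises the others.

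**Figure D3:**
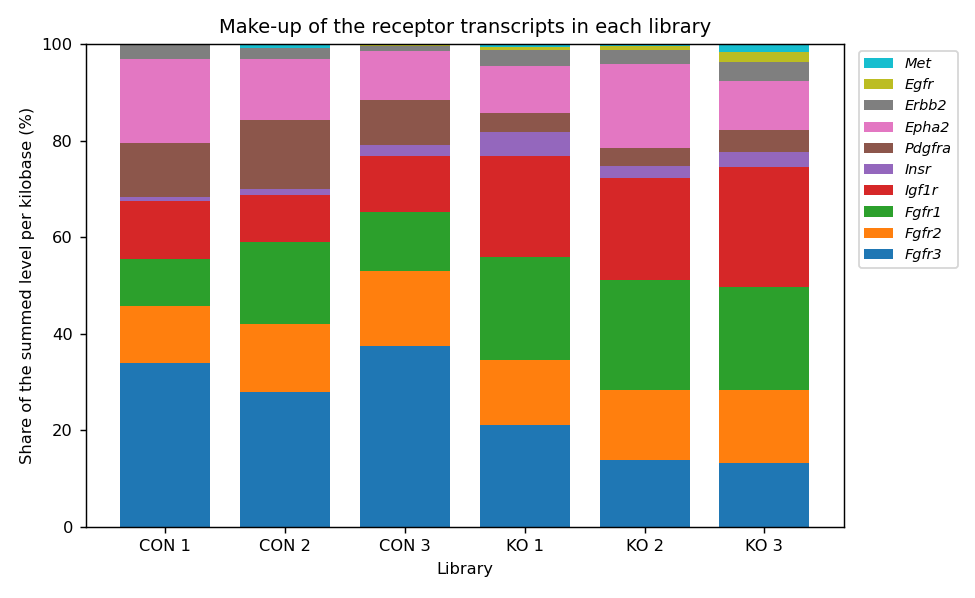
Each bar is one library and splits the summed normalised reads per kilobase of the 10 receptor genes into percent per gene. The Fgfr3 segment at the base shrinks from 27.9% to 37.4% in CON to 13.2% to 21% in KO, and those of Fgfr1 and Igf1r widen.

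In the ligand lists, which also hold binding proteins and Igf2r, genes that rose outnumbered those that fell. Over all tested genes 6.91% rose and 4.39% fell. Of 22 FGF genes 5 could be tested, and Fgf1 (1.33, SE 0.37, adjusted p = 0.0411) and Fgf14 (1.5, SE 0.40, adjusted p = 0.0328) rose. Fgf1 encodes a ligand for all FGF receptors, and Fgf14 an intracellular FGF homologue that is not secreted. Fgf1 measured 53.8, 0 and 85.5 normalised reads across the CON libraries, against 141, 246 and 371 across the KO libraries. The median of the 5 tested was 0.97. The filter used the mean over both groups, and Fgf1 and Fgf14 entered the test largely through their KO reads. Both calls rest on few reads. That of Fgf1 was lost without CON 2, KO 2 or KO 3 (largest adjusted p 0.159), that of Fgf14 without any library except CON 1 (largest adjusted p 0.117), and neither was called when voom was run with size factors on the recovered reads (adjusted p = 0.279 and 0.140).

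Of 8 tested genes of insulin and IGF ligands and binding proteins, 3 rose and 1 fell (median 0.40). Igf1, the ligand of Igf1r, measured 585, 138 and 409 normalised reads across the CON libraries, against 3069.7, 1748 and 1002 across the KO libraries (log2 difference 1.95, SE 0.40, adjusted p = 0.0102). Its KO values were all above the CON values, with KO 1 highest and KO 3 lowest. The summed macrophage markers ranked the KO libraries alike, at 19549, 9991 and 6192 normalised reads, against 1517 to 2944 in CON. So did the summed markers of lens epithelium, endothelium, pericytes and mesenchyme, pigment cells and red cells. This order therefore singles out no cell type. Macrophages are a known source of Igf1. 9 of 12 tested macrophage markers rose (median log2 difference 1.75), with Ptprc at 0 in CON 2 and Itgam at 0 in CON 3, and their part in the rise of Igf1 was not tested. Igf2r, which takes up IGF2 for degradation (1.6, adjusted p = 0.00385), and Igfbp4, which sequesters IGF (1.77, adjusted p = 0.00275), also rose. Igfbp7, a secreted relative of the binding proteins, fell from 2705 ± 667 to 829 ± 192 normalised reads (-1.51, adjusted p = 0.00308). These 4 calls passed without each library in turn. That of Igfbp7 was lost under total-read scaling (adjusted p = 0.0581), and those of Igf2r (adjusted p = 0.127), Igfbp4 (0.110) and Igfbp7 (0.114) with the naming style covariate.

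Hbegf, a membrane-anchored ligand of EGFR, was the only EGF family ligand of 11 with enough reads for the test. It measured 134, 132 and 149 normalised reads across the CON libraries, against 629, 455 and 446 across the KO libraries, a clear separation (log2 difference 1.21, SE 0.25, adjusted p = 0.00958). Of 3 tested PDGF ligands, Pdgfd, which binds the PDGF beta receptor, rose (2.27, SE 0.41, adjusted p = 0.00539). It measured 126, 0 and 0 normalised reads across the CON libraries, against 371, 616 and 441 across the KO libraries. With so few CON reads, it entered the test largely through the KO libraries, in which it was called higher. The call was lost with voom on recovered reads and size factors (adjusted p = 0.0920). Pdgfa, a ligand of the receptor encoded by Pdgfra, had a log2 difference of 0.26 (adjusted p = 0.614). None of the 6 tested ephrin genes was called by limma, also at an unadjusted p under 0.05, or with voom on recovered reads and size factors (median 0.16). Under total-read scaling 2 were called higher, and without CON 1 there was 1, where 28.9% and 9.46% of all tested genes were called higher. Efna5, the ephrin of the lens with the highest count here, ran from 4224 to 4759.7 normalised reads in CON and from 4626 to 5187 in KO (log2 difference 0.10, adjusted p = 0.772).

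Among 8 tested receptors of the same families that are not part of the 10, Fgfrl1 fell and Epha4 rose (median 0.27). At the same threshold 4.39% of all tested genes fell and 6.91% rose. Fgfrl1 encodes an FGF receptor that lacks the kinase domain. It measured 2878, 1825 and 1642 normalised reads across the CON libraries, against 675, 911 and 1003 across the KO libraries (log2 difference -1.12, SE 0.25, adjusted p = 0.0156). All KO values lay below all CON values, and the call was lost without KO 1 or KO 2 (largest adjusted p 0.0640), under total-read scaling (-0.48, adjusted p = 0.315) and with the naming style covariate (adjusted p = 0.0837). Epha4 was low, at 40.2 ± 16.0 in CON and 197 ± 93.5 normalised reads in KO (1.00, adjusted p = 0.0430). It lost its call without any library except CON 1 (largest adjusted p 0.150) and with the replicate number as a block (adjusted p = 0.0685). The call was also lost without the filter (adjusted p = 0.0812), with equal library medians (0.0654) and with quantile normalisation (0.0931). So it was with log2 of normalised reads plus 1 (0.0642) and voom with size factors (0.219).

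Of 15 tested receptor tyrosine kinases of other families, 4 rose and none fell (median 0.34), where 6.91% of all tested genes rose and 4.39% fell. Ntrk2, the receptor for the neurotrophin BDNF, measured 894, 412 and 791 normalised reads across the CON libraries, against 2839, 3967 and 3923 across the KO libraries (log2 difference 2.14, SE 0.27, adjusted p = 0.000708). The retinal markers summed to 1712 to 3125 normalised reads in CON and 3859 to 5376 in KO, with 1 of 7 tested called higher, and their part in the rise of Ntrk2 was not tested. Ddr2, a collagen receptor, rose from 63.7 ± 59.2 to 475 ± 141 normalised reads (1.72, adjusted p = 0.00566). Csf1r, the receptor that macrophages need to survive, rose from 232 ± 148 to 744 ± 245 (1.27, adjusted p = 0.0308), and Axl, a receptor for GAS6 on macrophages and other cells, from 254 ± 152.4 to 730.3 ± 139.8 (1.19, adjusted p = 0.0282). The rise of macrophage markers given above stands beside both. The number that rose was 2 without CON 2, CON 3, KO 1 or KO 2, and 1 with voom on recovered reads and size factors. Each of those 4 libraries, when left out, ended the call of Csf1r (largest adjusted p 0.119). Leaving out any library except CON 1 ended that of Axl (largest adjusted p 0.116).

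Heparan sulfate chains hold FGF to its receptor. Of 18 tested genes of heparan sulfate co-receptors and synthesis, 3 rose and none fell (median 0.17). The shares over all tested genes were 6.91% higher and 4.39% lower. Sdc4, which encodes the core protein syndecan 4, measured 1766, 1639.6 and 1807 normalised reads across the CON libraries, against 4987, 3137 and 3476 across the KO libraries (log2 difference 1.05, adjusted p = 0.0106). Gpc3, which encodes a glypican (1.27, adjusted p = 0.0185), and Glce, which encodes the epimerase that modifies the chains (1.34, adjusted p = 0.0372), rose as well. Without CON 2, CON 3, KO 1 or KO 2 the number was 1, since Gpc3 (largest adjusted p 0.0982) and Glce (up to 0.116) were lost, and without KO 3 it was 2. Without CON 1 it was 5, where 9.46% of all tested genes were called higher.

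Inside the cell, receptor signals pass through adaptors and kinase cascades. Of 14 tested adaptors and docking proteins, Grb2 fell and none rose (median 0.02). Shares over all tested genes, for this and the next list, were 4.39% lower and 6.91% higher, so a count of 1 stands near them. Grb2 links phosphorylated receptors to RAS activation. It measured 1099, 1561 and 1136 normalised reads across the CON libraries, against 609, 429 and 536 across the KO libraries, and the groups did not overlap (-1.05, SE 0.23, adjusted p = 0.0149). The call was lost without CON 2, KO 2 or KO 3 (largest adjusted p 0.0983). Of 13 tested genes that attenuate receptors, Grb10, an adaptor that restrains insulin and IGF receptors, rose from 1344 ± 963 to 3558 ± 556 normalised reads (1.47, adjusted p = 0.0223). The number was 2 without CON 1, where 9.46% of tested genes were called higher. The call was lost without CON 2, CON 3, KO 2 or KO 3 (largest adjusted p 0.0912).

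Of 15 tested genes of the RAS and ERK cascade, Map2k2, which encodes the ERK kinase MEK2, fell and none rose (median 0.12). For this and the next list, the shares over all tested genes were 4.39% lower and 6.91% higher. It measured 3422, 2373 and 1114 normalised reads across the CON libraries, against 815, 809.8 and 819 across the KO libraries (-1.21, SE 0.32, adjusted p = 0.0343), and the call held only without CON 3 among the fits with 1 library left out (largest adjusted p 0.114 in the others). Without CON 1 or CON 3, 1 gene of this cascade was called higher, against 9.46% and 5.99% of all tested genes. Under total-read scaling 8 genes of this cascade were called higher and none lower, against 28.9% and 0.741% of all tested genes. Of 16 tested genes of the PI3K and AKT cascade, 2 rose and 1 fell (median -0.04). Pik3r3, which encodes a regulatory subunit of PI3K, measured 499, 264 and 658 normalised reads across the CON libraries, against 1568, 1897 and 2296 across the KO libraries (1.75, SE 0.28, adjusted p = 0.00270). Pik3r1, another regulatory subunit (0.94, adjusted p = 0.0484), rose, and Mtor, the kinase of growth control downstream of AKT (-0.90, adjusted p = 0.0262), fell. Both calls were lost without any library except CON 1 (largest adjusted p 0.172 and 0.122), and with the replicate number as a block (adjusted p = 0.0833 and 0.0791). That of Pik3r1 was also lost without the filter (adjusted p = 0.0747), with equal library medians (0.0659) and with quantile normalisation (0.0540). So it was with log2 of normalised reads plus 1 (0.0698), voom with size factors (0.0809) and no variance trend (0.0572).

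ERK targets, among them genes through which ERK limits its own pathway, rose in part, 6 of 11 tested with none lower (median 1.06). Over all tested genes 6.91% rose. The filter used the mean over both groups, so a target with few CON reads could enter the test through its KO reads. Dusp6, an ERK phosphatase, went from 533 ± 287 to 5936 ± 1099 normalised reads (3.20, adjusted p = 0.000181). Dusp4 (2.39), Egr1 (2.66) and Spry4 (1.77) rose too, in the same libraries in which Fgfr3 and Fgfrl1 were lower. Macrophage markers also rose in these libraries (9 of 12 tested). The part of the lower receptors or of macrophages in the rise of these targets was not tested. With voom on recovered reads and size factors 3 ERK targets rose, and Spry4 was not called (adjusted p = 0.0769). The number of ERK targets that rose ran from 4 to 8 with 1 library left out.

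**Figure D4:**
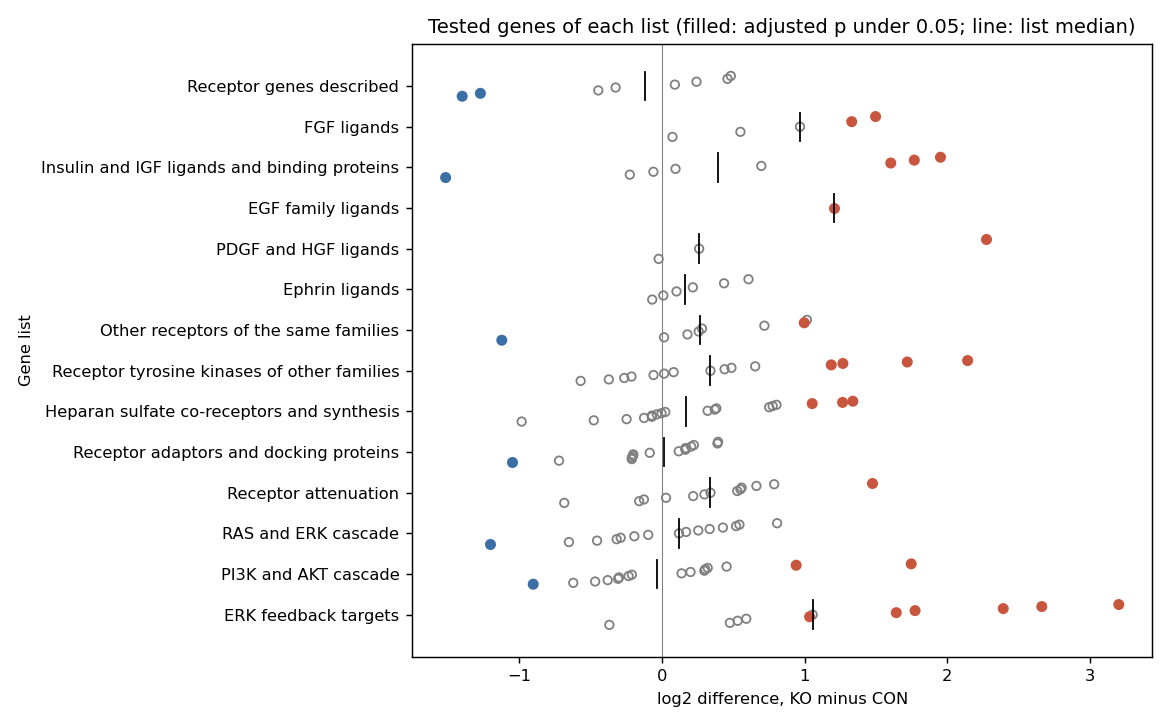
Each point is a tested gene placed by its log2 difference, KO minus CON, in the row of its list, filled red or blue where it was called higher or lower and open where it was not called, with a line at the list median. The 10 chosen receptors (8 tested) show filled points only at the low end, whereas the filled points of the ligand rows lie at the high end except Igfbp7.

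Of the 27 called list genes named here, 21 lost their call with the naming style covariate, and Igf1, Ntrk2, Sdc4, Dusp4, Dusp6 and Egr1 passed. Under total-read scaling 9 lost it, namely Epha4, Fgf1, Fgf14, Fgfrl1, Grb2, Igfbp7, Map2k2, Mtor and Pdgfd. With voom on recovered reads and size factors 11 lost it, and without the filter 8. With log2 of normalised reads plus 1 the number was 7, and with quantile normalisation 3.

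By a rule based on the distance between log2 deviations over the 6 libraries, the genes whose pattern was most like that of Pdgfra were Mxd1 (root mean square difference 0.087), Galnt2 (0.11) and Tmcc1 (0.14), which all fell (log2 differences -1.35, -1.22 and -1.26). For Igf1r they were Arhgef40 (0.046), Cnksr3 (0.051) and Proser3 (0.061), none of which was called. These are descriptions over 6 libraries of 11468 genes.

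Exons of some receptor genes share bases with other annotated genes, and whether the counting used strand is not given in the sources used here. Opposite-strand genes overlap 998 exon bases of Fgfr3 (G630022F23Rik), 456 and 166 of Pdgfra (Gm42802 and Gm42803) and 9 of Erbb2 (Mien1), and Ctbp2 shares 314 exon bases with Fgfr2 on the same strand. Gm16159 overlaps Fgfr1 on the opposite strand.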

How the data were processed

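RNA sequencing of P1 mouse lenses gave 3 Gclc KO and 3 Gclc CON libraries, grouped by their titles in the labels. The submitters' processing notes name Trimmomatic, HISAT2 2.1.0, featureCounts 1.6.4, DESeq2 (2.11.0.6 in the notes) and the mm9 build. The deposited values are log2 units after the variance-stabilising transformation of DESeq2, as the name of the authors' table states. The transformation was inverted to reads per library: 100.0% of values came within 0.1 of a whole number, and the size factors so found, from 0.3178 (CON 2) to 1.892 (KO 3), matched median-of-ratios factors. No source used here names molecular identifiers, so floors cover counting error only.

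Differences between KO and CON were tested by limma (3.58.1, under R 4.3.3, moderated with a trend in the variance prior) on the deposited values of 11468 genes whose mean exceeded the table's lowest value, 6.504, by 1 unit or more, and called at an adjusted p under 0.05. The mean was taken over both groups, so a gene with few CON reads could enter the test through its KO reads. Names, transcript lengths and promoters came from GRCm38 annotation, which matched 25275 identifiers. The fit, tested on simulated data for the KO minus CON comparison with 11468 genes, called 24 of 100 genes set to differ by 1 log2 unit and 96 of 100 set to differ by 2, with 5 false among 125 calls. All genes were simulated with the same dispersion, and no outlying library or naming style effect was included. These numbers therefore do not give the rate of false calls in the real libraries. The receptor genes, the 13 pathway lists and the 10 marker lists were chosen with earlier results of these data known. Named were all receptors, Gclc, the called members of each list (the 4 with the smallest p where over 5 were called in a direction) and the 3 genes nearest in pattern to the receptor with the smallest p in each direction. Pdgfa, Efna5, Fgfr4, Pax2, Ptprc and Itgam were named after their values were seen. Marker lists not given in the text were endothelium (0 of 9 tested called), pigment cells (1 higher of 5), surface epithelium (1 higher of 1) and red cells (1 lower of 4). The alternatives were other filters, scalings, variance priors and weights, a replicate block, a library name covariate and each library left out.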

Additional observations from a re-analysis of the deposited data

How the results depend on the processing

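The decrease of Fgfr3 and Pdgfra kept its direction under all alternatives run. Of 2 receptor genes called lower, 1 was left with a minimum of 3 log2 units above the lowest value, where Pdgfra was not tested, 0 under total-read scaling and 0 with the naming style covariate, which also cut the calls over all genes to 1.78% higher and 0.340% lower. With 1 library left out the number lower ran from 1 to 2. Against 0 called higher, 3 were called under total-read scaling, and from 0 to 1 with 1 library left out. Signs turned for Fgfr2 (0.36) and Epha2 (0.13) under total-read scaling, and for Erbb2 with equal library medians (-0.033), quantile normalisation (-0.067) and without CON 3 (-0.13; range with 1 library left out -0.13 to 0.32). With the replicate number as a block, 0 of the 8 tested receptor genes were called higher and 2 lower, as without it. Gclc (adjusted p = 0.0643), Epha4 (0.0685), Mtor (0.0791) and Pik3r1 (0.0833) lost their calls under the block. Equal numbers correlated at -0.364, -0.128 and -0.140 in their residuals, no library correlated best with its own number, and the numbers were not used as pairs. Over all genes 793 were called higher and 504 lower. The block left 605 and 309, equal library medians gave 643 and 717, voom on recovered reads with size factors 421 and 472, total-read scaling 3314 and 85, library weights 1219 and 933, and the naming style covariate 204 and 39. With 1 library left out the calls ran from 3.11% (without KO 2) to 9.46% (without CON 1) of tested genes higher and from 1.53% (without KO 2) to 7.48% (without CON 1) of tested genes lower. Running the list counts under all alternatives was chosen after seeing the data. Depth limits Egfr and Met, with at most 35 and 13 reads in any CON library.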

Other observations

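Ratios between receptors within a library need no size factor and were formed after the values were seen. Per kilobase, Fgfr3 stood at 3.47, 1.65 and 3.06 times Fgfr1 in CON 1 to 3 and at 0.985, 0.613 and 0.620 times in KO 1 to 3. Fgfr3 was the more abundant of the pair in every CON library and Fgfr1 in every KO library. Pdgfra went from 1.14, 0.849 and 0.754 times Fgfr1 in CON to 0.180, 0.165 and 0.217 times in KO. Fgfr2 to Fgfr1 was 1.22, 0.830 and 1.28 in CON and 0.629, 0.644 and 0.706 in KO, and Fgfr3 to Fgfr2 was 2.84, 1.99 and 2.39 in CON and 1.57, 0.952 and 0.878 in KO. For each of these 4 ratios the groups did not overlap, and they are given as a description. An exact permutation test gave p = 0.1 for each (adjusted p = 0.125 over 5 ratios). That is the smallest p it can give with these libraries, so it cannot decide whether the ratios differ. The ratio of Igf1r to Insr overlapped between the groups (15.1, 8.06 and 5.24 in CON, 4.10, 8.73 and 8.41 in KO, exact permutation p = 0.6).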
